A study of Mus musculus with 120 samples.

Results

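A set of 9 chemokine genes, Ccl1, Ccl3, Ccl4, Ccl5, Ccl17, Ccl22, Xcl1, Cxcl2 and Cxcl10, were followed in single mouse group 2 innate lymphoid cells (mILC2s). They were taken by symbol as a named list, and all 9 were found among the 46078 Ensembl gene identifiers of the data. Cells came from the pooled mesentery of 20 wildtype C57BL/6 mice, were sorted as lineage-negative c-Kit+ Sca-1+ cells and were cultured for several months in medium with IL-2. They were then imaged live for secretion of 1 cytokine, IL-13 or IL-5, which served as the index for recovery, and each recovered cell gave 1 3′ end RNA-seq library. Each index held 60 cells in 6 states. Pre-stimulation cells (5 per index) carry no treatment in the labels, though the culture medium held IL-2 for all cells, and all other cells had been incubated with IL-2 and IL-33. Transition cells were recovered 30, 60 or 90 min after their own secretion began, activated cells were secreting and silent cells were not secreting when the stimulated wells were sampled, with 11 cells in each of these 10 groups. The mice were of 1 genotype, and since nothing ties a cell to a mouse or a culture, each of the 12 groups of index and state was treated as 1 sample and no test between groups was possible.

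Chemokines are small secreted proteins that draw leukocytes along a gradient by binding G protein-coupled receptors. Their families are named for the spacing of the first cysteines, as CC, CXC, C and CX3C. ILC2s are known as tissue cells that answer IL-33 with type 2 cytokines, and the chemokines they make, with the chemokine receptors they carry, bear on which cells gather around them and where they themselves settle.

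To place the genes before their values, the stretch of 250 bases just before the RefSeq transcription start (GRCm38.p6) is shown for 3 of them. Ccl1 is shown because it held most of the chemokine reads, Cxcl2 because it was the only other member to reach 50 CPM (reads per 1000000 gene reads) in a group, and Ccl3 because it lies in the CC cluster of chromosome 11, as Ccl1 does, and had 0 reads. Each is written 5′ to 3′ on the strand of its gene, with matches to the kappa B motif, GGG and CC parted by any 5 bases and read on either strand, in capitals.
Ccl1, chr11:82179813-82180062, minus strand: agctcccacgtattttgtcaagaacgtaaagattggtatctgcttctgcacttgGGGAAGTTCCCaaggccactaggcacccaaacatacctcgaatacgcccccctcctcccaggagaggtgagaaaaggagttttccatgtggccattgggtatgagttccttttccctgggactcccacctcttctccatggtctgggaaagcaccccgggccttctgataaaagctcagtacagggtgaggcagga
Cxcl2, chr5:90903649-90903898, plus strand: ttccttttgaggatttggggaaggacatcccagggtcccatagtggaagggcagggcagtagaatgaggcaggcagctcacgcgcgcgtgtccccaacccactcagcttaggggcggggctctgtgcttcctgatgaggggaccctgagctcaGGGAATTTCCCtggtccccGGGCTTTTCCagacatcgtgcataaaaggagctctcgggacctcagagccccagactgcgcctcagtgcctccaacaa
Ccl3, chr11:83649379-83649628, minus strand: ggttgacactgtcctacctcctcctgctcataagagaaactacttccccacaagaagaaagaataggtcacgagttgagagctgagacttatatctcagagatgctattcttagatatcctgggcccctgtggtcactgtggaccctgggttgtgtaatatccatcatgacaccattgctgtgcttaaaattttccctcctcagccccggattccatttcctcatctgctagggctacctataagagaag

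RefSeq windows from 250 bases before to 50 bases after the start were matched for 7 of the 9 members, all but Ccl4 and Ccl5. The kappa B motif had 2 matches in the Ccl1 window, which overlap as 1 site read on both strands beginning 196 and 195 bases before the start. It had 3 matches in the Cxcl2 window, of which 2 overlap in the same way at 97 and 96 bases before the start and 1 begins 78 bases before it. The Cxcl10 window had 4 matches, 3 of them overlapping, and the Ccl22 window 2, while those of Ccl3, Ccl17 and Xcl1 had 0. Of all 32851 RefSeq windows, 50.8% held a match, so the motif by itself sets no member apart. The AP-1 motif TGANTCA, present in 7.81% of windows, was found only in that of Cxcl10. The GATA motif AGATAA, in 11.2% of windows, was found in those of Ccl17 and Cxcl10, and the NFAT core GGAAA, in 61.3% of windows, in 6 of the 7, all but Ccl22. Both strands were searched, an NFAT match can lie inside a kappa B match, and a match is a description of letters, not of binding.

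Gene reads numbered 31016336 in all, with 65 in the shallowest cell, 254001 in the median cell and 785198 in the deepest. A total of 6 cells were shallow, with under 84667 reads, and 3 of them, 1 each of the IL-5 30 min, 60 min and silent groups, had under 5000 reads. Titles carry 2 dates per index, with 5 cells of each stimulated group and all pre-stimulation cells on the first date and the 6 remaining cells of each stimulated group on the second, no date is shared between the indexes, and index and date cannot be told apart. All 14 ILC2 marker genes reached 50 CPM in at least 1 group, with a summed level of 6276 to 14128 CPM per group, while the B cell list and the NK and ILC1 list were at 0 throughout. Macrophage and monocyte markers summed to at most 38.3 CPM in a group, dendritic cell markers to at most 77.6 CPM, mast cell and basophil markers (Fcer1a leading) to at most 326 CPM and stromal and fat markers (Pecam1 leading) to at most 175 CPM. ILC3 markers summed to 344 CPM (Il22 leading) in IL-13 activated cells, which had the highest Ccl1 level and the lowest ILC2 marker sum, to 6.42 CPM in IL-13 silent cells and to 0 elsewhere. T cell markers, with Cd3g leading and Cd4, Cd8a and Cd8b1 at 0, summed to 1159 and 1312 CPM in the pre-stimulation groups and to 24.8 to 576 CPM in the stimulated groups, and so moved with the split seen below for Ccl1 and Ccr2. The part of these markers in the chemokine levels was not tested.

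Ccl1, the CC ligand of the receptor CCR8, was the main chemokine transcript of these mILC2s. It gave 63788 reads, which is 94.0% of the reads of the 9 members, and had at least 1 read in 98 of 120 cells (81.7%). Cxcl2, a neutrophil-attracting ligand of CXCR2, gave 3742 reads (5.52%) in 10 cells. Ccl5, Cxcl10 and Ccl17 gave 156, 87 and 53 reads in 2, 2 and 1 cells. Ccl3, Ccl4, Ccl22 and Xcl1 had 0 reads in all 120 cells. Only Ccl1 and Cxcl2 reached 50 CPM of summed counts in any group, Ccl1 in all 10 stimulated groups.

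**Figure D1:**
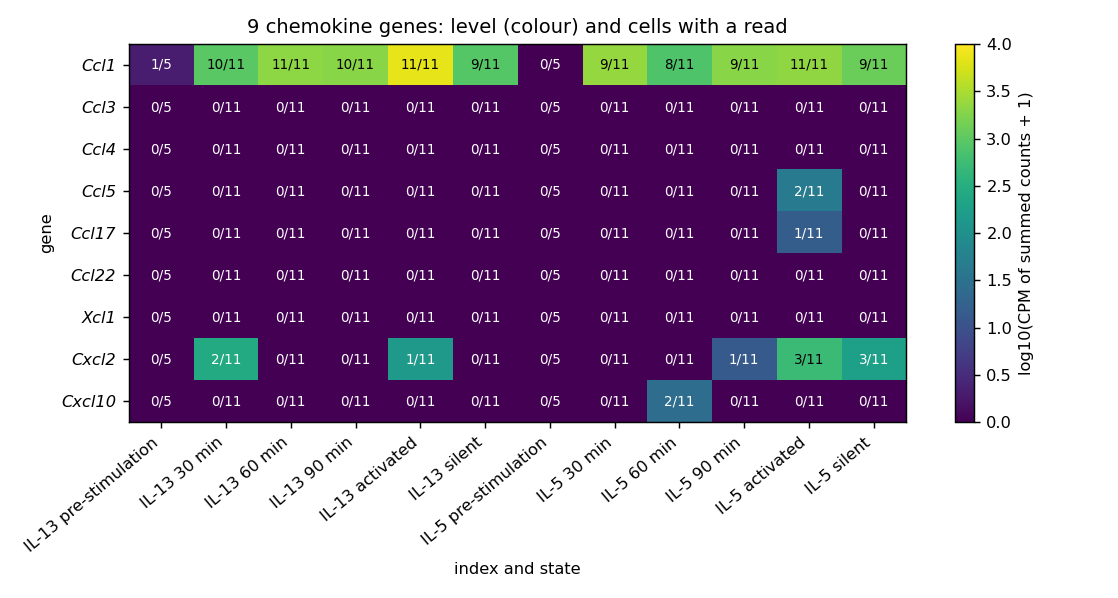
Level of the 9 chemokine genes (rows) in the 12 groups of index and state (columns), with colour for log10(CPM of summed counts + 1) and the number of cells with a read over the number of cells in each box. Ccl1 fills all 10 stimulated groups, Cxcl2 appears in 5 of them, Ccl5 and Ccl17 in IL-5 activated cells, Cxcl10 in IL-5 60 min cells, and the rows of Ccl3, Ccl4, Ccl22 and Xcl1 are empty.

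Ccl1 (ENSMUSG00000020702, minus strand of chromosome 11, 82176657 to 82305690 in the GRCm38 annotation, with no exon of another gene over its own, a long gene model inside which the RefSeq start used above lies) was at or near 0 before stimulation. In the IL-13 index 1 of 5 pre-stimulation cells had a single read (4.63 CPM) and the other 4 had 0, for a group level of 1.04 CPM (exact 95% Poisson interval 0.0263 to 5.78). In the IL-5 index all 5 cells had 0 reads, for which the exact interval ends at 3.04 CPM and the limit of 3 reads is 2.47 CPM. All intervals in the text cover counting error only, since reads without molecular identifiers are not independent molecules, and they do not describe the spread between cells.

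After stimulation with the IL-13 index, Ccl1 stood first low in most 30 min cells, then high in nearly all 60 min cells. At 30 min the cells ranged from 0 to 6557 CPM with a median of 50.2 CPM, 2 of 11 cells were at 1000 CPM or more, and the group level was 947 CPM (interval 910 to 985, and 465 CPM without replicate 4). At 60 min the lowest cell was at 555 CPM, the median at 2278 CPM and the highest at 4102 CPM, with 10 of 11 cells at 1000 CPM or more and a group level of 2083 CPM. The 60 min cells were the most alike of the stimulated groups for this gene, with an SD over 11 cells of 0.88 on the log2(CPM + 1) scale against 2.63 to 4.89 in the 9 other stimulated groups. Both title dates showed this, with SDs of 0.38 (5 cells, 1616 to 3312 CPM) and 1.09 (6 cells, 555 to 4102 CPM).

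At 90 min the IL-13 index cells had spread out again, from 0 to 8781 CPM around a median of 1297 CPM, with 6 of 11 cells at 1000 CPM or more and a group level of 1956 CPM. Activated cells held the highest level of the 12 groups, 7092 CPM (7000 to 7185), with a read in 11 of 11 cells, a lowest cell at 147 CPM, a median of 5346 CPM and a highest cell at 34763 CPM. The top cell, replicate 2 of the first date, weighed on the sum, and without it the group stood at 4574 CPM, still above every other group. Silent cells had a group level of 877 CPM from a few cells, and of 441 CPM without replicate 9. Their median was 9.33 CPM, 2 of 11 had 0 reads, 3 were at 1000 CPM or more and the highest was at 4387 CPM.

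In the IL-5 index no group showed the evenly high cells of the IL-13 60 min group. The medians were 47.6, 86.1 and 86.9 CPM at 30, 60 and 90 min, 83.5 CPM in silent cells and 884 CPM in activated cells. The group levels, 2317, 789, 1953, 1284 and 2201 CPM in the same order, rested on 2 cells of 11 at 1000 CPM or more at 30 min, 2 at 60 min, and 4 each at 90 min, in silent and in activated cells. Of the 4 silent cells, 1 was the cell of 2152 gene reads, whose 1859 CPM stand for only 4 reads. The highest cells were at 8857 CPM at 30 min, 2713 CPM at 60 min, 7433 CPM at 90 min, 4978 CPM in silent cells and 16805 CPM in activated cells, and the last of these gave 67.2% of the Ccl1 reads of its group. Without that activated cell, replicate 11 of the second date, the IL-5 activated level was 791 CPM. At 60 min replicate 7, which was not the highest cell by CPM, gave 70.6% of the reads, and the level without it was 301 CPM. The 30 min level was 1332 CPM without replicate 11 and the silent level 794 CPM without replicate 5.

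**Figure D2:**
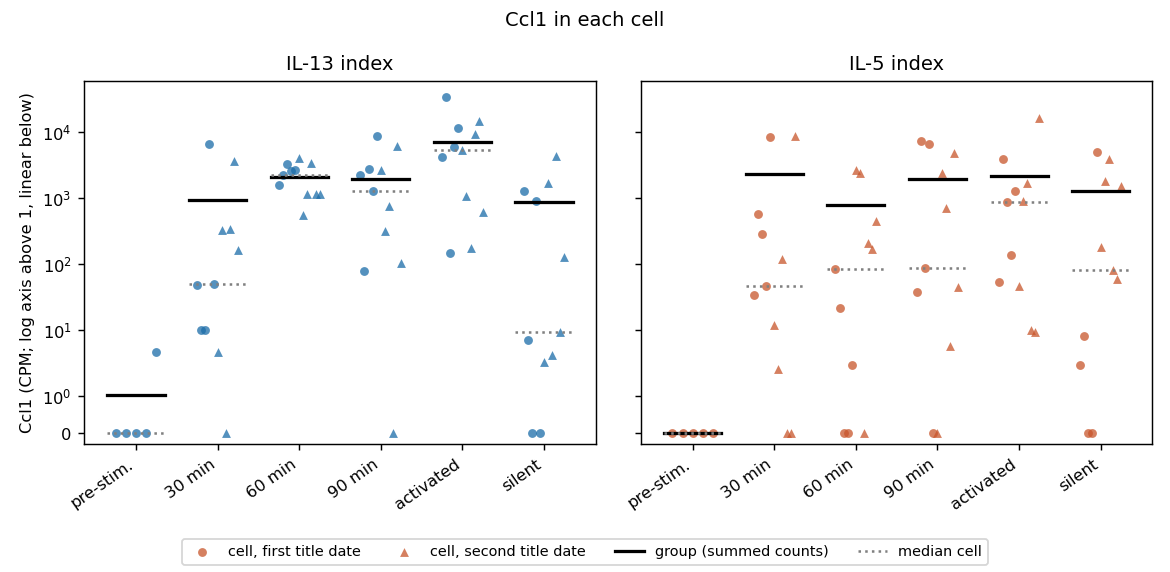
Ccl1 in each cell as CPM (log axis above 1, linear below) by state, with the IL-13 index on the left and the IL-5 index on the right, circles for cells of the first title date and triangles for the second, a black bar for the group level of summed counts and a dotted grey bar for the median cell. The IL-13 60 min cells lie between 555 and 4102 CPM, the IL-13 activated cells between 147 and 34763 CPM, and every other stimulated group reaches down to under 10 CPM.

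Over both indexes, 45 of 110 stimulated cells (40.9%) were at 1000 CPM or more, and these 45 cells held 95.3% of the Ccl1 reads. A further 23 cells lay from 100 to under 1000 CPM and 42 lay under 100 CPM. With the IL-13 index 29 of 55 stimulated cells (52.7%) were at 1000 CPM or more, against 16 of 55 (29.1%) with the IL-5 index. Among transition cells the counts were 18 of 33 and 8 of 33. These shares are descriptions of the cells recovered, without a test.

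The order of the group levels was IL-13 activated, IL-5 30 min, IL-5 activated, IL-13 60 min, IL-13 90 min, IL-5 90 min, IL-5 silent, IL-13 30 min, IL-13 silent, IL-5 60 min, and then the pre-stimulation groups. Counting intervals of neighbours overlapped only between the 90 min groups, between IL-13 30 min and IL-13 silent, and between the pre-stimulation groups. The range of levels on leaving out any 1 cell shows how far 1 cell moves a level and is no interval for a difference between groups. These ranges overlapped for all neighbours from the second place to the tenth. For groups of 1 sample each the order is therefore only a description.

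Each stimulated state was then set against pre-stimulation, to see which members differed by 4-fold or more where the higher of the groups had at least 50 CPM. At 30 min in the IL-13 index 2 members, Ccl1 and Cxcl2, were past 4-fold higher, where 22.3% of the genes of that level were. The log2 ratio of Ccl1 was 9.83, with a wide counting interval of 7.36 to 15.14 because the pre-stimulation group had 1 read. With the pre-stimulation group set to 3 reads it was 8.25 with all cells, 7.22 without 30 min replicate 4 and 7.88 without pre-stimulation replicate 5. For activated cells the same 2 members passed (background 22.1%), and for silent cells Ccl1 alone (background 27.1%). In the IL-5 index Ccl1 was at least 936-fold higher at 30 min, against the level that 3 reads over the pre-stimulation group would give, and was the 1 member to pass (background 22.6%). Activated and silent IL-5 cells each had 2 members past 4-fold higher, Ccl1 and Cxcl2 (backgrounds 20.6% and 22.0%), and Ccl1 was at least 889-fold higher in activated cells. A single cell moved both bounds, since on the log2 scale the 30 min bound was 9.87 with all cells and 9.07 without 30 min replicate 11, and the activated bound 9.80 and 8.32 without activated replicate 11. With at most 1 read before stimulation, no member could be called lower in these comparisons, where 17.6% to 27.1% of the genes were. For the same reason a member at 50 CPM was bound to be called higher, since 3 reads before stimulation are 3.11 CPM (IL-13 index) and 2.47 CPM (IL-5 index). In each comparison the members called were all those at 50 CPM, so these counts only say which members reached that level. Pre-stimulation cells came from the first date only, and within that date the log2 ratio of Ccl1 against pre-stimulation in the IL-13 index was 8.84 at 30 min and 11.89 for activated cells, with pre-stimulation set to 3 reads. On the same footing all cells gave 8.25 and 11.15.

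Between stimulated states the IL-13 index gave the clearer Ccl1 differences. Activated cells exceeded silent cells by 3.02 on the log2 scale (counting interval 2.95 to 3.08), and by 2.38 (without activated replicate 2) to 4.01 (without silent replicate 9) on leaving out any 1 cell. The value was 4.59 on the first date and 1.89 on the second, so it was past 4-fold on the first alone. Ccl1 and Cxcl2 were the 2 members past 4-fold higher in this comparison (background 9.48%). At 30 min Ccl1 was below the activated level, with a log2 ratio of -2.90 (-3.93 without 30 min replicate 4 to -2.27 without activated replicate 2, -3.05 and -2.59 by date), and it was the 1 member past 4-fold lower (background 14.0%). From 30 to 60 min the log2 ratio was 1.14 (0.96 to 2.16 on leaving out any 1 cell, the latter without 30 min replicate 4, and 0.80 and 1.50 by date), and from 60 to 90 min it was -0.09 (-0.58 to 0.13). No member was past 4-fold in the 90 min comparison (background 13.9% higher and 11.7% lower).

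In the IL-5 index the Ccl1 differences between stimulated states turned on single cells or dates. The log2 ratio of activated over silent cells was 0.78, but -0.70 without activated replicate 11, and it was -0.0046 on the first date and 1.02 on the second. At 30 min against activated it was 0.07, and from -0.72 to 1.55 on leaving out any 1 cell. From 30 to 60 min it was -1.55 (-2.95 without 60 min replicate 7 to -0.76 without 30 min replicate 11), and from 60 to 90 min 1.31 (0.76 to 2.70, the latter without 60 min replicate 7). Both of these last values came mostly from the first date, on which the 60 min cells were at 0 to 86.1 CPM, with log2 ratios of -6.96 and 6.96, against -0.57 and -0.02 on the second. No member was past 4-fold in activated against silent cells (background 6.13% higher and 11.9% lower), at 60 against 30 min (8.46% and 9.72%) or at 90 against 60 min (13.7% and 7.61%).

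Before stimulation the indexes had no member at 50 CPM to compare (background 25.9% higher and 22.1% lower with the IL-5 index). Between the indexes after stimulation, Ccl1 at 30 min was higher with the IL-5 index by 1.29 on the log2 scale (0.49 without IL-5 30 min replicate 11 to 2.32 without IL-13 30 min replicate 4). At 60 min it was lower by a log2 ratio of -1.40 (-2.79 without IL-5 60 min replicate 7 to -1.22), and in activated cells by -1.69 (-3.16 without IL-5 activated replicate 11 to -1.06 without IL-13 activated replicate 2). The dates of the indexes differ, so no value within a date can be had. The earlier date of each index set side by side gave 0.88 at 30 min, -6.89 at 60 min and -3.42 in activated cells, and the later dates 1.65, -0.42 and -0.42. At 90 min the ratio was -0.0024 with a range of -0.55 to 0.49, and in silent cells 0.55 with a range of -0.14 to 1.54, so neither had a direction that held without any 1 cell. Ccl1 was not past 4-fold in any of these comparisons, nor was any member at 60 min (background 12.5% higher and 10.5% lower), at 90 min (16.9% and 10.8%) or in activated cells (5.59% and 7.09%).

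**Figure D3:**
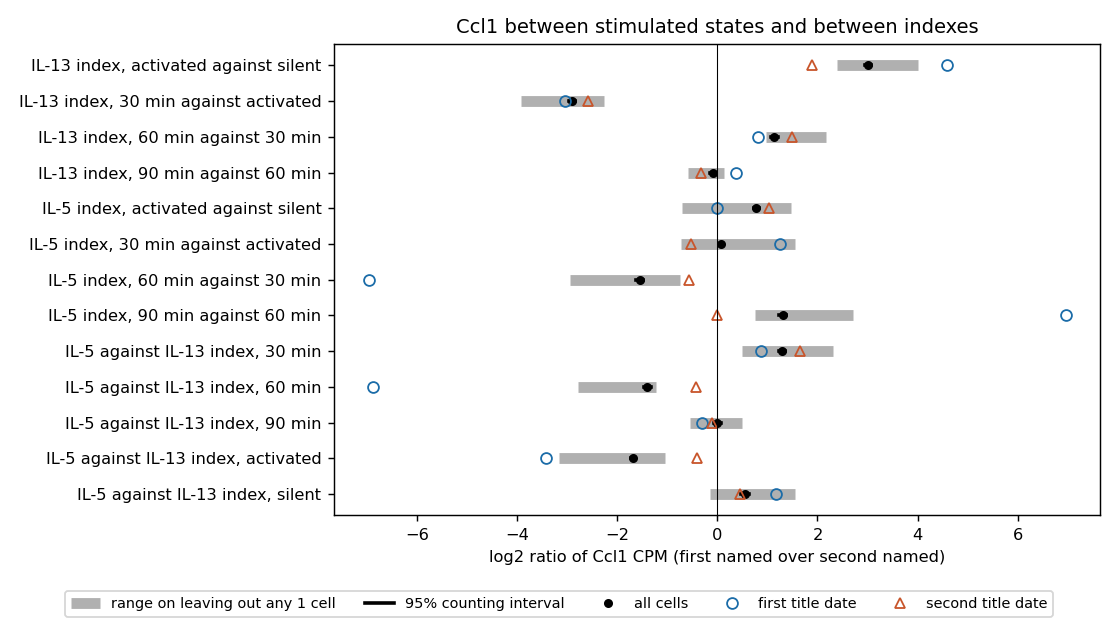
Log2 ratio of Ccl1 CPM for 13 comparisons between stimulated groups, with black points and lines for all cells and their 95% counting interval, grey bars for the range on leaving out any 1 cell, and open circles and triangles for the first and second title date of an index alone, which are different dates in the 2 indexes. IL-13 activated against silent (3.02) and IL-13 30 min against activated (-2.90) lie past 4-fold, and the dates part most for IL-5 60 min cells.

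Ccl1 and the indexed cytokine gene were high in the same cells in some groups and not in others. All 3 IL-13 silent cells at 1000 CPM or more of Ccl1 had under 100 CPM of Il13, at most 58.5 CPM, and 1 of them had an Il13 read. Silent cells were recovered for not secreting, and that cell was the only one of the 11 in its group with an Il13 read. Low Il13 was thus shared by all silent cells of this index, whatever their Ccl1. At 30 min more cells were high for Il13 than for Ccl1, with 7 of 11 IL-13 index cells at 1000 CPM or more of Il13 and 2 at that level of Ccl1, both of them among the 7. In the IL-13 60 min group 10 cells were at 1000 CPM or more of Ccl1, of which 4 were so for Il13. In the IL-5 transition groups each cell at 1000 CPM or more of Ccl1, 2 at 30 min, 2 at 60 min and 4 at 90 min, was also at 1000 CPM or more of Il5, as were 8, 7 and 7 cells of those groups in all. Of the 4 IL-5 silent cells at 1000 CPM or more of Ccl1, 2 had under 100 CPM of Il5, where the median of the whole group was 63.6 CPM. Spearman's rho over the 104 stimulated cells that were not shallow was 0.277 for Ccl1 with Il13, 0.130 with Il5 and -0.041 with the number of gene reads. Within the IL-13 index (53 cells) it was 0.251 with Il13 and 0.243 with Il5, and within the IL-5 index (51 cells) 0.376 with Il13 and 0.198 with Il5. These are weak relations over cells that share pools and groups. Over the 22 activated cells rho was -0.536 with Il5, but the indexes differ in both genes, in opposite directions, and within an index it was -0.364 (IL-13 index, 11 cells) and -0.10 (IL-5 index, 11 cells). With the number of genes detected it was -0.464 and -0.573 within the indexes.

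**Figure D4:**
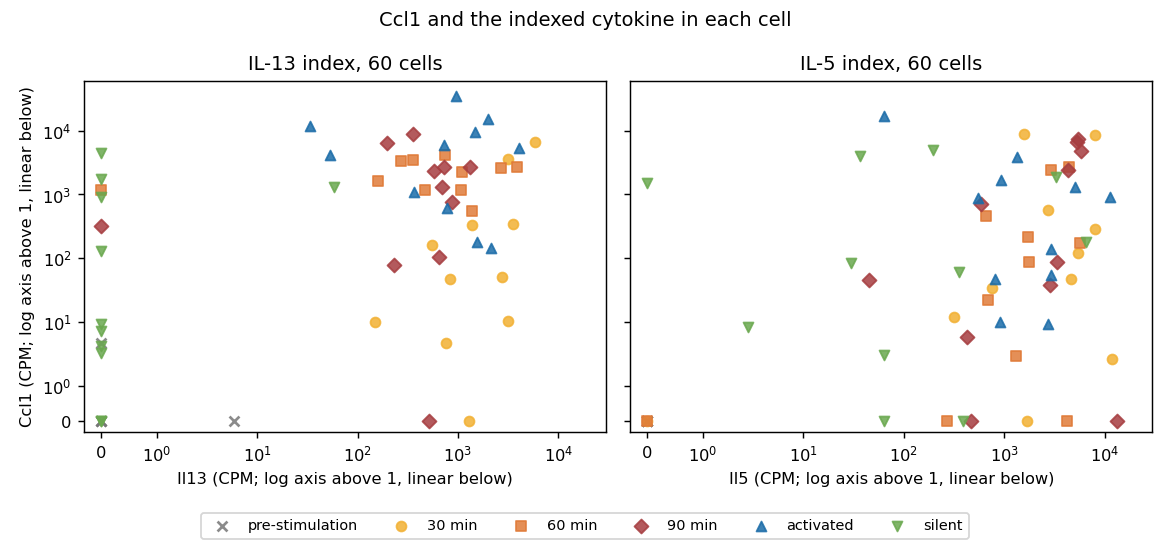
Ccl1 (vertical axis) against the indexed cytokine gene (horizontal axis, Il13 on the left and Il5 on the right) in each of the 60 cells of an index, both as CPM on log axes that are linear below 1, with a marker for each state. IL-13 silent cells run along the left edge, at 0 to 4387 CPM of Ccl1 and 0 CPM of Il13 but for 1 cell at 58.5 CPM, and most 30 min cells lie low on the Ccl1 axis.

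How many cells count as Ccl1 positive depends on the limit. In the IL-13 index a read was found in 10, 11, 10, 11 and 9 of 11 cells at 30, 60 and 90 min, in activated and in silent cells, and in the IL-5 index in 9, 8, 9, 11 and 9. With a limit of 5 reads the silent counts became 5 and 6, and the 30 min counts 7 in each index. After each cell was thinned to 100000 gene reads, which kept 113 cells and left out 7, a read was found in 6 of 11 IL-13 silent cells, in 8 of 11 IL-13 30 min cells and in 11 of 11 cells of the IL-13 60 min group and of both activated groups. At 100 CPM or more the count was 11 of 11 in the IL-13 60 min and activated groups, and 5 of 11 in the IL-13 30 min and silent groups and in the IL-5 30 min, 60 min, 90 min and silent groups.

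Libraries were pooled in sets of 5 or 6 before tagmentation, taken here as the cells of 1 state, index and date. Of the cells under 1000 CPM of Ccl1 that were not shallow, 48 of 57 (84.2%) had a read in the 18 pools that also held a cell at 1000 CPM or more, against 4 of 15 (26.7%) in the 3 other pools. Of the latter pools, 2 were the pre-stimulation pools, and in the 1 stimulated pool, IL-5 60 min on the first date, 3 of 5 cells had a read. Of the 48 cells, 25 were under 100 CPM. State and pool cannot be told apart here, and the part of reads carried between libraries in these low values was not tested.

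By the Pearson correlation of log2(CPM + 1) over the 12 groups, the genes most like Ccl1 among 3722 were Mrpl17 (r = 0.985), a mitochondrial ribosomal protein gene, Dkc1 (r = 0.982), which encodes the pseudouridine synthase dyskerin, and Pop7 (r = 0.982), which encodes a subunit of RNase P and MRP. All 3 were at 0 CPM in IL-13 pre-stimulation cells, as Ccl1 nearly was, so the points share a split between pre-stimulation and stimulated groups as well as their libraries. For Cxcl2 the nearest were Ufl1 (r = 0.787), Psmc6 (r = 0.786) and Rpp30 (r = 0.781), lower values over groups in which 7 of the 12 were at 0 for Cxcl2.

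The other CC genes of the set were rare or without reads. Ccl5, which encodes a T cell and monocyte attractant, had reads in 2 IL-5 activated cells, 50 reads (163 CPM) in replicate 4 and 106 reads (228 CPM) in replicate 6, on different dates, for a group level of 41.8 CPM (35.5 to 48.9). Ccl17, a CCR4 ligand, had 53 reads (162 CPM) in 1 IL-5 activated cell, replicate 1, for a group level of 14.2 CPM. Both genes were at 0 in the 11 other groups. Ccl22, the other CCR4 ligand, which lies near Ccl17 on chromosome 8, and Ccl3 and Ccl4, which encode macrophage inflammatory proteins, on chromosome 11 had 0 reads. The limit that 3 reads set over all cells is 0.0967 CPM, and by the same limit of 3 counts 0 of 120 cells, of which 3 had under 5000 gene reads, allows a share of up to 2.5% of cells with a read. Xcl1, the C family ligand of XCR1, also had 0 reads. Of its exon bases 18.7% lie under Gm20743 on the opposite strand, which had 0 reads too.

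Cxcl2 was detected in few cells, but at high levels in some of them. It had reads in 10 of 120 cells, all stimulated, 7 of the IL-5 and 3 of the IL-13 index, and 9 of them on the earlier date of their index (6 and 3), which are different dates. The IL-5 activated group stood highest at 524 CPM (501 to 548), from 3 cells at 4733, 121 and 116 CPM, the first of which held 96.7% of the reads. IL-13 30 min followed at 274 CPM, with 1 cell at 3453 CPM and another at 5.10 CPM (1 read). IL-5 silent cells were at 183 CPM from 3 cells at 1558, 125 and 2.79 CPM, and IL-13 activated cells at 147 CPM from 1 cell at 1624 CPM. IL-5 90 min cells were at 12.6 CPM from 1 cell at 187 CPM, and the 7 other groups were at 0. Each of the 5 group levels thus rested mainly on 1 cell. In the 4 pools with a cell at 1000 CPM or more, 4 of the 16 other cells (25.0%) had a Cxcl2 read, among them both cells with a single read, against 2 of 94 cells (2.13%) in the 18 other pools. As for Ccl1, the part of reads carried between libraries was not tested.

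The comparisons of Cxcl2 were accordingly comparisons of single cells. Set against pre-stimulation, its IL-13 30 min level was at least 88.0-fold higher and its IL-13 activated level at least 47.1-fold higher. For IL-5 activated cells this bound was at least 212-fold, and for IL-5 silent cells at least 73.9-fold. Cxcl2 was the 1 member past 4-fold lower at 60 against 30 min in the IL-13 index (background 12.2%), at 30 min against activated in the IL-5 index (background 7.77%), and in the IL-5 against the IL-13 index at 30 min (background 11.3%). It was the 1 member past 4-fold higher in the IL-5 against the IL-13 index in silent cells (background 11.1%, against 17.2% lower). Without IL-13 30 min replicate 4 or IL-13 activated replicate 4 the IL-13 groups had at most 1 read, and the first 2 of these folds were lost. The Cxcl2 log2 ratio was then -0.31 at 60 against 30 min and -0.53 between the indexes at 30 min (both without IL-13 30 min replicate 4), and -0.13 in IL-13 activated against silent cells (without activated replicate 4), so these calls rested on the same cells. In the first 2 of these comparisons the count of members past 4-fold stayed at 1, since Ccl1 was then past 4-fold higher (2.16 and 2.32). Without IL-5 activated replicate 5 the IL-5 activated level was 19.2 CPM, and without IL-5 silent replicate 1 the silent level was 16.8 CPM.

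All 10 cells with a Cxcl2 read, each of them stimulated, also had a Ccl1 read, where 97 of the 110 stimulated cells did. The cell with the most Cxcl2, IL-5 activated replicate 5, had 1310 CPM of Ccl1, and IL-13 30 min replicate 4 had 6557 CPM. IL-5 silent replicate 1, in contrast, had 1558 CPM of Cxcl2 with 3.02 CPM of Ccl1 (1 read). Cxcl1 and Cxcl3, which neighbour Cxcl2 on chromosome 5 and encode ligands of the same receptor, were detected in few cells too. Cxcl1 reached 1551 CPM in IL-13 activated replicate 4, the cell with 1624 CPM of Cxcl2, and had 1 read in 1 other cell. Cxcl3 had reads in 15 cells, of which 3 also had Cxcl2, which is 20.0% of the cells with Cxcl3 and 30.0% of those with Cxcl2.

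Cxcl10, an interferon-induced ligand of CXCR3, had reads in 2 IL-5 60 min cells, 86 reads (337 CPM) in replicate 1 and 1 read in replicate 3, both on the first date. The group level was 25.5 CPM (20.4 to 31.4), and the gene was at 0 in the 11 other groups. Of its exon bases 5.91% lie under Art3 on the opposite strand, which had 0 reads. The strand setting of the counting is not given in the sources used here.

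Of 28 other chemokine ligand genes, 22 had 0 reads in all cells, and 3 reached 50 CPM in a group. These were Cxcl1 (140 CPM in IL-13 activated cells), Cxcl3 (up to 84.7 CPM, in IL-5 activated cells, 4 of 11 with a read) and Cx3cl1 (57.0 CPM in IL-13 activated cells, from 1 cell). In activated cells against pre-stimulation 2 of the 28 had 50 CPM in the IL-13 index (Cxcl1 and Cx3cl1) and 1 in the IL-5 index (Cxcl3), and these were past 4-fold higher, where 22.1% and 20.6% of all genes at that level were. Having 0 reads before stimulation, these 3 could not have been called otherwise. Read counts of these ligands rest on 1 to 4 cells of a group, as those of Cxcl2 do.

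Of 23 chemokine receptor genes, 8 had 0 reads and 6 reached 50 CPM in a group. Cxcr6, the receptor of the ligand CXCL16, had a read in 118 of 120 cells and lay between 798 CPM (IL-13 activated) and 2421 CPM (IL-5 30 min) in all 12 groups, so it was present before stimulation, at 985 and 1142 CPM, when Ccl1 was at 1 read and 0 reads. Its level at 60 against 30 min had a log2 ratio of 1.00 in the IL-13 and -0.43 in the IL-5 index. By date these were 1.32 and 0.80 in the IL-13 index but 0.06 and -0.81 in the IL-5 index, so the IL-5 direction came from the later date. Ccr2, a receptor for monocyte chemoattractants, was highest before stimulation. It was at 322 CPM (288 to 360) and 286 CPM (257 to 318) in the pre-stimulation groups, with reads in 5 of 5 and 4 of 5 cells. The second of these levels was 164 CPM without IL-5 pre-stimulation replicate 4, which held 56.5% of the reads. Ccr2 stood at 84.1, 50.3 and 29.4 CPM at 30, 60 and 90 min, the last value being 0.648 CPM without the shallow cells and 13.0 CPM without replicate 3, and at 0 in activated and silent cells of the IL-13 index. By date the 30, 60 and 90 min levels were 90.6, 86.9 and 113 CPM on the first date and 80.2, 31.9 and 0 CPM on the second. The 113 CPM rested on the 2 shallow cells, replicates 3 and 4, with 28 and 20 reads, and 1 read was left on that date without them. Ccr2 was at 0 in all IL-5 groups after stimulation but silent cells (14.0 CPM, 2 of 11 cells).

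Ccr4, the receptor of CCL17 and CCL22, ranged from 0 CPM in IL-5 pre-stimulation cells to 188 CPM in IL-5 90 min cells (118 CPM without replicate 7), with reads in 0 to 5 cells of a group. In activated cells it was at 128 CPM with the IL-5 index (89.6 CPM without replicate 7) and at 6.58 CPM with the IL-13 index (1.47 CPM without replicate 11). Cxcr4, the CXCL12 receptor, was at 0 before stimulation and highest at 95.0 CPM in IL-13 60 min cells (7 of 11 with a read, 60.4 CPM without replicate 11). Ccr6 (178 CPM in IL-13 silent cells, 2 cells with a read) and Ccr9 (219 CPM in IL-5 pre-stimulation cells, 1 cell) rested on 1 or 2 cells. Exons of other genes lie over 21.5% of the exon bases of Ccr9, and those genes had 3 reads in all. Ccr8, the receptor of CCL1, and Cxcl16, the ligand of CXCR6, were looked up after their values were seen. Ccr8 had 111 reads over 12 cells and Cxcl16 had 68 reads over 3 cells. Against pre-stimulation, only 2 of the 23 receptor genes had 50 CPM in the comparison of IL-13 activated cells, of which 0 were past 4-fold higher and 1 lower (Ccr2). In that of the IL-5 index 4 had 50 CPM, of which 1 was higher (Ccr4) and 2 lower (Ccr2 and Ccr9). Over all genes of that level 22.1% were higher and 25.2% lower in the IL-13 index, and 20.6% higher and 27.1% lower in the IL-5 index.

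**Figure D5:**
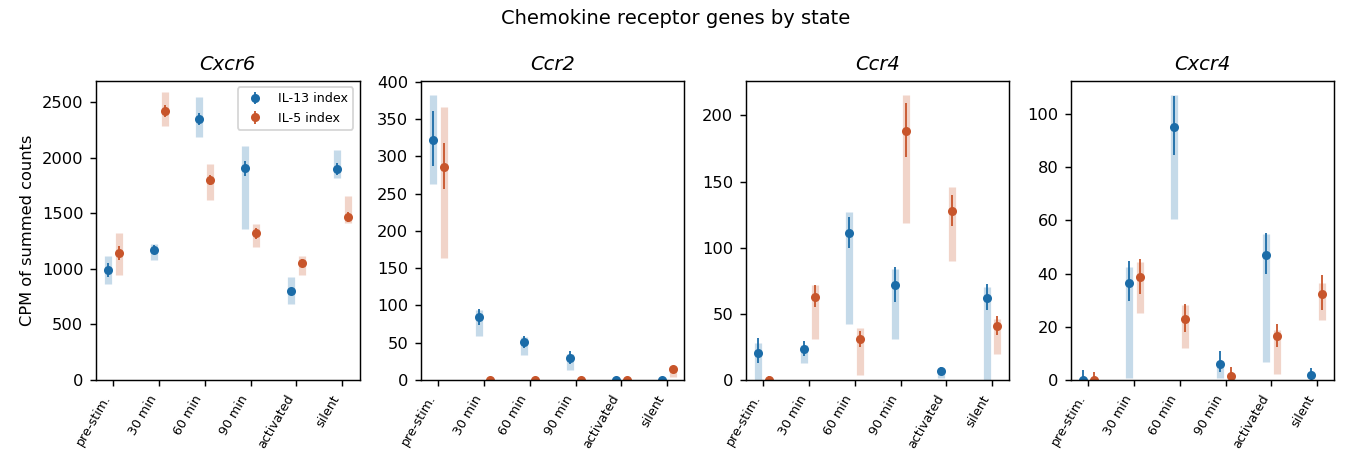
CPM of summed counts of the receptor genes Cxcr6, Ccr2, Ccr4 and Cxcr4 by state for both indexes, with points and thin lines for the level and its exact 95% Poisson interval and pale bars for the range on leaving out any 1 cell, each panel with its own linear axis from 0. Cxcr6 is present in all 12 groups, Ccr2 is highest in the pre-stimulation groups (322 and 286 CPM), and the pale bars of Ccr4 and Cxcr4 are long because few cells carry the reads.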

How the data were processed

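Gene expression was measured by SMART-Seq v4 3′-DE RNA-seq of 120 single cells. The authors deposited unnormalised counts of reads per gene. Per their methods, reads were aligned to GRCm38 (mm10) with TopHat (TopHat2 in the submitters' processing notes) and tallied with HTSeq. Strand setting and annotation release are not given in the sources used here. Of the tallied alignments 62.0% were in genes and 28.7% aligned at more than 1 place, and only the former were used. Symbols, positions and exon overlaps came from a GRCm38 gene annotation by identifier, which named 45143 of 46078 identifiers.

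Groups came from source names and titles. For each group the counts of its cells were added up and expressed as CPM, with exact 95% Poisson intervals, shares of cells were given beside their number of cells, and log2 ratios carry a Clopper-Pearson interval for how the reads split between the groups. A group at 0 reads was set to 3 reads, as was any group under 3 reads for calls, leave-one-out and date values against it. A gene was past 4-fold where the ratio was at least 4 and its higher group had at least 50 CPM, and the background is the share of all genes at that level past 4-fold in the same direction. Over 20 comparisons no test was made, because each group is 1 sample.

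The members and lists were chosen with earlier results of these data known. Named genes were all 9 members, other ligands and receptors with at least 50 CPM in a group, the 3 genes most correlated over 12 groups with each member that reached 50 CPM in 3 or more groups, and Il13 and Il5. Alternatives tried were averaging CPM over cells, TMM and DESeq2 size factors, other minimums, folds and pseudocounts, cell subsets and leaving out each cell. Interval coverage was tested only on simulated Poisson counts, the form these intervals assume, which leaves out amplification and the spread between cells. Python 3.11.15 (numpy 2.4.6, scipy 1.17.1, pandas 2.3.3, matplotlib 3.10.9) and R 4.3.3 (edgeR 4.0.16, DESeq2 1.42.0) were used.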

Additional observations from a re-analysis of the deposited data

Results flagged for a closer look

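Among the pre-stimulation groups of 5 cells, a single cell stood apart from the other 4, which were all at 0, for Ccl1 in the IL-13 index (4.63 CPM, 1 read), Ccr4 in the IL-13 index (119 CPM), Il13 in the IL-13 index (5.93 CPM), Il5 in the IL-13 index (93.4 CPM) and Ccr9 in the IL-5 index (1005 CPM). About 1 in 20 groups is singled out this way by chance where values are normally distributed. A gene with reads in just 1 of the 5 cells is always singled out by this rule, whatever its level, so these cases show no more than that.

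Some genes moved in opposite directions in the 2 indexes, each direction holding on leaving out any 1 cell, though the difference was not tested. Ccl1 at 60 against 30 min had a log2 ratio of 1.14 with IL-13 as index and -1.55 with IL-5. The IL-5 value is one of summed reads, since the median IL-5 cell was at 47.6 CPM at 30 min and 86.1 CPM at 60 min, with 2 cells at 1000 CPM or more at each time. Over the same interval Ccr4 had 2.26 and -1.03, Cxcr6 1.00 and -0.43, and Il5 0.45 and -0.90. The Ccr4 fall in the IL-5 index held only barely, at 30.78 CPM at 30 min without replicate 11 against 30.73 CPM at 60 min. Its IL-13 60 min level was 42.3 CPM without replicate 7, against 23.2 CPM at 30 min. At 90 against 60 min Il13 had -0.94 and 0.80, and Il5 -0.55 and 0.69. The directions of Ccl1 and of Il13 held on both title dates of each index. Those of the others did not, since Ccr4 was -0.26 on the first IL-13 date and 0.71 on the first IL-5 date, Cxcr6 0.06 on the first IL-5 date, and Il5 -0.13 (60 against 30 min) and 0.09 (90 against 60 min) on the second IL-13 date. Index and title date cannot be told apart.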

How the results depend on the processing

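The number of chemokine genes past 4-fold was recomputed for all 20 comparisons. It did not move with CPM averaged over cells, TMM factors, DESeq2 size factors, a pseudocount of 10 CPM, or without the 6 shallow cells, nor in the 6 comparisons against pre-stimulation with the pre-stimulation cells of both indexes together. TMM factors shifted log2 ratios by up to 0.47 and DESeq2 size factors by up to 0.23. On the second title date of each index alone the count was 0 for IL-13 activated against silent, IL-13 60 against 30 min, IL-5 30 min against activated, and the indexes at 30 min and in silent cells. On the first alone it was 2 for IL-5 60 against 30 min, IL-5 90 against 60 min and the indexes at 60 min, and 1 for the indexes in activated cells. A minimum of 200 CPM left 1 for IL-13 activated against pre-stimulation, IL-13 activated against silent and IL-5 silent against pre-stimulation, and 0 for the indexes in silent cells. A minimum of 10 CPM gave 4 for IL-5 activated against pre-stimulation, 3 for IL-5 30 min against activated, 2 for IL-5 activated against silent, IL-5 90 against 60 min and the indexes in activated cells, and 1 for IL-5 60 against 30 min and the indexes at 60 and at 90 min. A limit of 2-fold gave 2 for IL-13 60 against 30 min and for the indexes at 30 min and in activated cells, and 1 for IL-5 activated against silent, IL-5 60 against 30 min, IL-5 90 against 60 min and the indexes at 60 min.

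On leaving out each cell in turn, the count ranged from 1 to 2 for IL-13 30 min and activated against pre-stimulation, IL-13 activated against silent, IL-13 30 min against activated, and IL-5 activated and silent against pre-stimulation. It ranged from 0 to 1 for IL-5 activated against silent, IL-5 30 min against activated, IL-5 60 against 30 min, IL-5 90 against 60 min, and the indexes at 60 min, in activated and in silent cells. The cells that moved a count were replicate 4 of the IL-13 30 min and of the activated cells, IL-5 activated replicates 5, 6, 7 and 11, IL-5 silent replicate 1 and IL-5 60 min replicate 7. The direction of Ccl1 past 4-fold did not turn under any of these alternatives. Another 2 alternatives were chosen after seeing the data, leaving out the 3 cells under 5000 gene reads and a limit of 100 CPM per cell. No paired analysis was possible because replicate numbers only name cells here and no test was made. Depth limits the genes at 0 reads to under 0.0967 CPM over all cells, and the cause of the changes above was not tested.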
